A study of Homo sapiens with 15 samples.

Results

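The ERK feedback genes are 10 genes chosen by name: the MAP kinase phosphatases DUSP4, DUSP5 and DUSP6, the Sprouty genes SPRY1, SPRY2 and SPRY4, the Spred genes SPRED1 and SPRED2, and the ETS factors ETV4 and ETV5. All 10 were found among the 31352 gene identifiers of the deposited table, and all 10 passed the filter on low counts that left 15122 genes for testing. They were measured by polyA RNA-seq in 15 libraries, 3 for each of 5 groups of a human cell line. The 4 NICD groups carried doxycycline-induced NICD1, NICD2, NICD3 or NICD4, the intracellular domain that a cleaved NOTCH receptor releases, and the EV group was an isogenic control with an empty vector. The cell line field names HCT116, a colorectal carcinoma line, while the descriptions and column names carry U373, a glioma line. No label gives the time or amount of doxycycline, says whether EV received it, or says whether replicates or NICD lines are separate cultures or clones, so p-values measure the spread between libraries only. Replicates 1 and 3 of NICD2 differed little, with a chi-square of read counts of 1.31 per degree of freedom. The other replicate pairs within groups gave 2.53 to 44.7, and the reason was not tested. NICD4 replicate 1 is NICD4 by title and description, although other fields of that sample read NICD3.

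ERK is the last kinase of the RAS, RAF and MEK cascade that growth factor receptors switch on. Active ERK raises the transcription of several of its own inhibitors, among them nuclear and cytoplasmic phosphatases that dephosphorylate MAP kinases and Sprouty and Spred proteins that act near RAS and RAF. The PEA3 group factors ETV4 and ETV5 are also raised by ERK in many cells and act on transcription. In intestinal epithelium and colorectal tumours these genes are widely used as a transcript readout of the cascade.

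The unit of level is CPM, the usual depth-scaled unit of read counts, with library totals scaled by the trimmed mean of M values (TMM). A change is a difference of log2 levels with its SE, tested in limma with p adjusted over all tested genes. Library totals lay between 11630195 and 27704492 counted reads. Some genes of colon epithelium were present, with EPCAM at a mean of 155 CPM and CDX2 at 18.1 CPM in EV, whereas the astrocyte genes GFAP and S100B stood at 1.66 and 0.220 CPM in EV. The whole astrocyte and glioma list of 12 genes summed to 48.9 to 87.4 CPM in NICD libraries and 56.7 to 59.5 CPM in EV libraries, and 5 of its genes reached 1 CPM in EV, with NES (30.2 CPM) and SLC1A3 (20.7 CPM) highest. The summed level of a colorectal list of 12 genes was 9570 to 23124 CPM in NICD libraries and 2137 to 2697 CPM in EV libraries. The keratins KRT8, KRT19 and KRT18 were the highest of that list in EV, at 1079, 715 and 399 CPM. In EV 6 of those 12 genes were under 1 CPM. They were VIL1 (0.948 CPM), KRT20 (0.578), LGALS4 (0.185), CDH17 (0.0830), GPA33 (0.0152) and CDX1 (no reads). A mesenchymal list of 6 genes summed to 13.3 to 23.4 CPM in NICD libraries and 54.8 to 60.7 CPM in EV libraries. Of the receptor genes, NOTCH2 was highest in its own group, at 41.8 CPM in NICD2 against 31.8 CPM in EV. NOTCH1 averaged 28.3 CPM in NICD1 and 30.8 CPM in EV, NOTCH3 11.8 CPM in NICD3 and 10.6 CPM in EV, and NOTCH4 1.94 CPM in NICD4 and 1.69 CPM in EV. The NOTCH target HES1 was at 39.6, 105, 49.0 and 55.8 CPM in NICD1 to NICD4, against 19.7 CPM in EV, and the groups are called by their labels. Libraries also differed in how levels ran with transcript GC content. The slope of this trend (log2 per 10 percentage points of GC) lay between 0.0852 and 0.26 for NICD1 libraries, between -0.209 and -0.0683 for NICD2, between -0.0128 and 0.121 for NICD3 and between 0.213 and 0.485 for NICD4. The EV libraries had the lowest slopes, between -0.459 and -0.352. The part of these marker and library differences in the results was not tested unless a value is given below.

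The members split evenly by direction and mostly in the same way under all 4 intracellular domains. DUSP6, SPRY2, SPRY4, SPRED1 and SPRED2 fell in each NICD group, while DUSP4, DUSP5, SPRY1 and ETV4 rose in each. ETV5 rose in NICD4 and did not pass in the other 3 groups, with calls that depended on scaling. SPRY1 passed the filter on low counts only through NICD libraries, since all 3 EV libraries were under its minimum, so its count among the rises is no support for a direction. In NICD1 against EV 4 members rose and 5 fell at an adjusted p under 0.05, beside 34.6% and 40.7% of all genes (75.3% in either direction). In NICD2 the counts were again 4 and 5, beside 28.6% and 31.1% of genes (59.6%), and in NICD3 4 and 5, beside 32.5% and 36.8% (69.2%). In NICD4 5 rose and 5 fell, beside 35.7% and 45.2% of genes (80.9%). Most genes passed in every comparison, so a call alone says little about these members. Falls in all 4 groups took 5 members and 24.4% of all genes, and rises in all 4 took 4 members and 22.1% of all genes. The median member change was -0.37, -0.33, -0.30 and -0.65 in NICD1 to NICD4, beside -0.11, -0.05, -0.08 and -0.18 over all genes. All 4 comparisons share the EV libraries, so they are not independent of each other. The GC slope of the libraries moved with several of these members. With the slope as a covariate the falls of SPRY4, SPRED1 and SPRED2 no longer passed in any group, while those of DUSP6 and the rises of DUSP5 did in all 4. SPRY2 no longer passed either, at -0.77, -0.93, -0.69 and -1.24 in NICD1 to NICD4. Its own slope term was imprecise, at -0.07 ± 0.10 per 0.1 of slope (limma adjusted p of 0.57), on 14 to 182 reads a library. The term of SPRED1 was -0.19 ± 0.04.

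**Figure D1:**
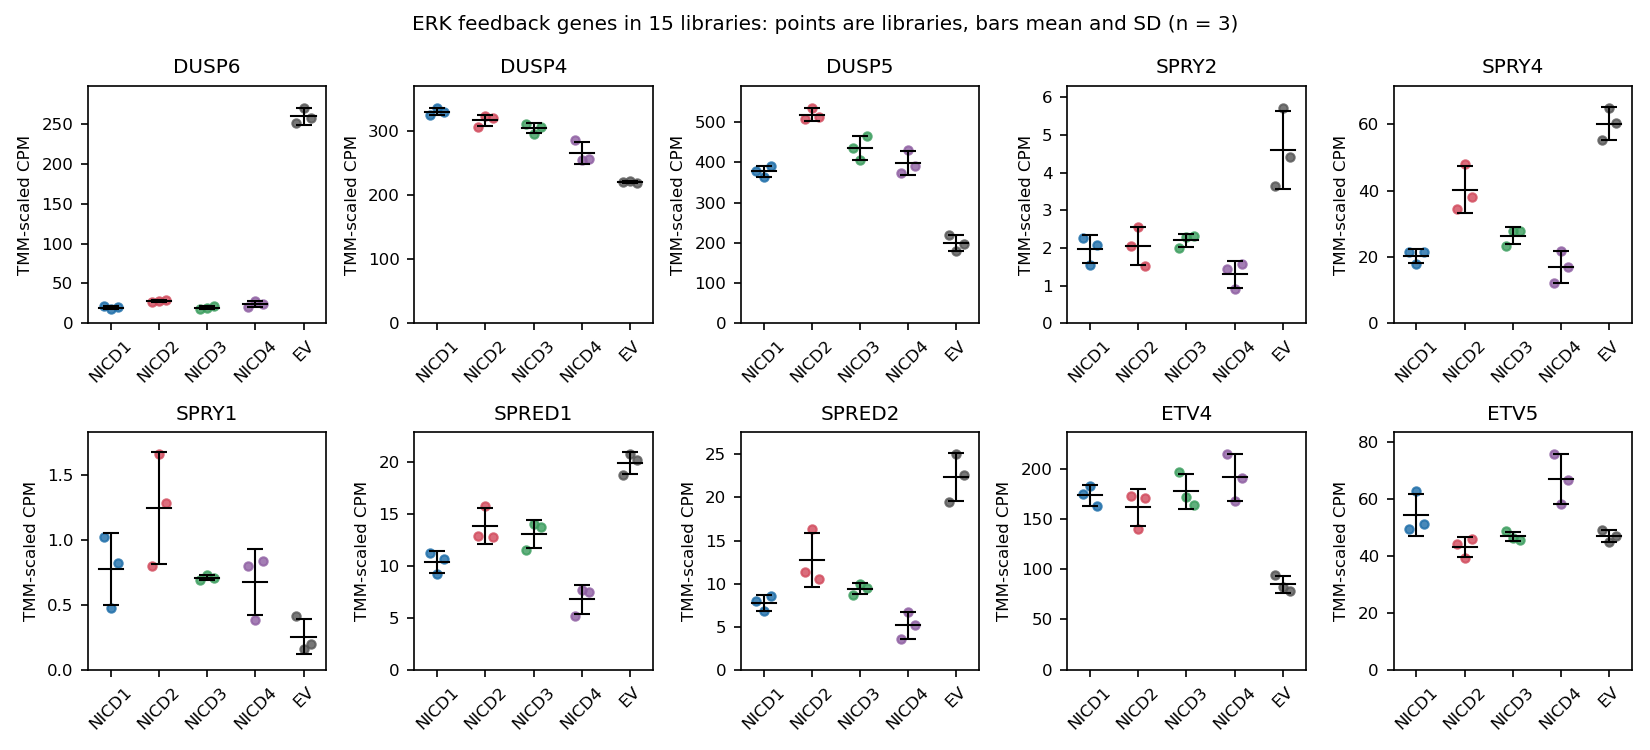
Level of each of the 10 members in the 15 libraries, in TMM-scaled CPM, with 1 panel a gene, a point for each library and bars at the mean and SD of each group (n = 3). DUSP6 stands at 17.2 to 29.3 CPM in the 12 NICD libraries and at 251 to 271 CPM in EV, while ETV5 overlaps EV in NICD2 and NICD3.

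DUSP6, the cytoplasmic phosphatase specific for ERK, had the largest change of the 10 members in every NICD group. Its gene lies on chromosome 12 at 89741050 to 89747048 (GRCh37). It stood at 21.3, 17.2 and 20.3 CPM in NICD1, 26.9, 27.7 and 29.3 CPM in NICD2, 17.8, 19.3 and 21.2 CPM in NICD3 and 20.0, 28.1 and 24.2 CPM in NICD4, against 251, 271 and 257 CPM in EV. Every NICD library lay far below every EV library. In bulk libraries fewer cells with the transcript and less of it per cell cannot be told apart. The level was 13.3-fold lower in NICD1 (95% interval 11.2 to 15.7), 9.28-fold lower in NICD2 (7.82 to 11), 13.4-fold lower in NICD3 (11.3 to 15.8) and 10.9-fold lower in NICD4 (9.16 to 12.9). These are log2 changes of -3.73, -3.21, -3.74 and -3.44 ± 0.11, with adjusted p of 6.2e-12, 3.4e-11, 4.9e-12 and 2.8e-11 by limma. Of the 15122 genes, only 371, 451, 331 and 435 fell more than DUSP6 in NICD1 to NICD4.

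DUSP5, the nuclear phosphatase that binds ERK, moved the opposite way. It was at 378, 363 and 392 CPM in NICD1, 508, 536 and 513 CPM in NICD2, 436, 407 and 467 CPM in NICD3 and 373.4, 430 and 392 CPM in NICD4, against 220.4, 179.5 and 197 CPM in EV. The groups did not overlap with EV, and the 3 NICD2 libraries were the highest of all. It rose by 0.93, 1.39, 1.14 and 1.00 ± 0.09 on the log2 scale in NICD1 to NICD4 (limma adjusted p of 4.8e-07, 9.9e-09, 7.7e-08 and 1.6e-07), or 1.90-, 2.62-, 2.20- and 2.01-fold. DUSP4, a nuclear phosphatase that acts on ERK and other MAP kinases, changed less. It stood at 326, 337 and 329.8 CPM in NICD1, 307, 323 and 321.5 CPM in NICD2, 312, 296 and 306 CPM in NICD3 and 286, 256 and 257 CPM in NICD4, against 221, 222 and 219 CPM in EV. All NICD libraries were above all EV libraries, by 0.58, 0.52, 0.46 and 0.27 ± 0.07 on the log2 scale (limma adjusted p of 3.3e-06, 1.7e-05, 3.4e-05 and 0.0022). The rise in NICD4 depended on scaling: on library totals alone the change was -0.22 and was called as lower (adjusted p of 0.0053), and in NICD3 it was 0.06 and no longer passed.

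**Figure D2:**
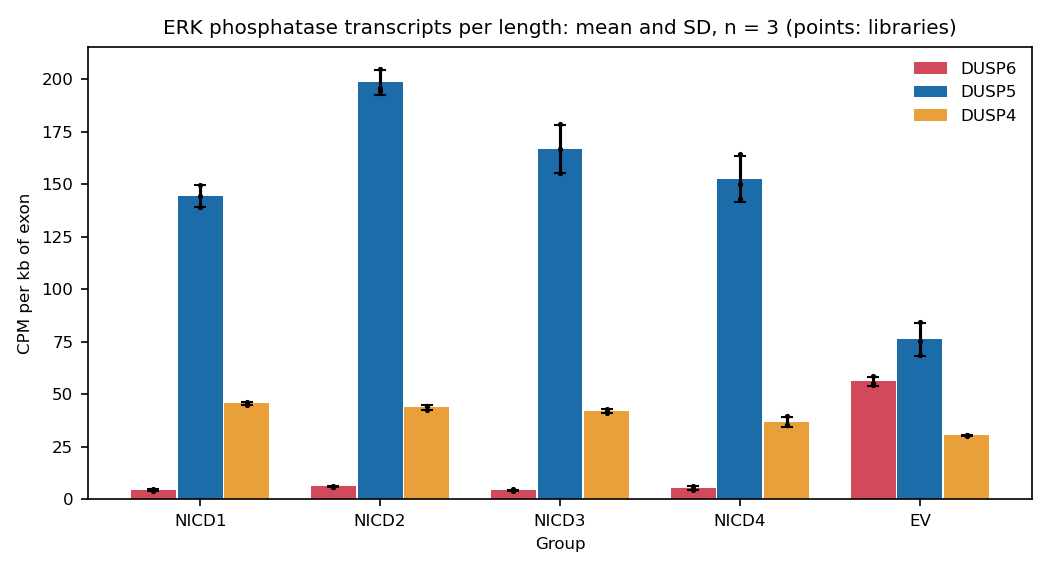
Levels of DUSP4, DUSP5 and DUSP6 in CPM per kilobase of exon, by group, as mean and SD (n = 3) with a point for each library. DUSP5 is the highest in every group, and DUSP6 stands second in EV at 56.1 CPM per kilobase but at 4.20 to 6.04 in the NICD groups.

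The makeup of the phosphatase transcripts differed between groups when each level was divided by exon length. DUSP6 made up 2.18% ± 0.21, 2.43% ± 0.12, 1.97% ± 0.15 and 2.67% ± 0.32 of the summed per-kilobase level of DUSP4, DUSP5 and DUSP6 in NICD1 to NICD4, against 34.5% ± 2.5 in EV (SD, n = 3 each). DUSP5 made up 74.3%, 79.9%, 78.3% and 78.4% in NICD1 to NICD4, against 46.7% in EV. The sum over the 3 phosphatases was 194, 248, 213 and 194 CPM per kilobase in NICD1 to NICD4, against 163 in EV. On this scale DUSP5 was the highest of the 10 members in all 5 groups and SPRY1 the lowest. DUSP6 was second in EV without overlap with its neighbours, and lay below ETV5 in all NICD groups, where its libraries overlapped those of SPRY4 in NICD2 and NICD3.

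The Sprouty genes, whose products restrain growth factor signalling upstream of ERK, did not move as a block. SPRY4, the most abundant of the 3 per length, was at 21.3, 17.7 and 21.6 CPM in NICD1, 34.4, 48.1 and 38.1 CPM in NICD2, 23.4, 27.9 and 27.8 CPM in NICD3 and 12.1, 21.7 and 17.0 CPM in NICD4, against 55.1, 65.0 and 60.3 CPM in EV. No NICD library reached the EV level, and NICD2 lay closest to it. SPRY4 fell by 1.57, 0.59, 1.19 and 1.86 ± 0.17 on the log2 scale in NICD1 to NICD4 (limma adjusted p of 2e-06, 0.0093, 3.3e-05 and 2.7e-07). The NICD2 call was lost without EV replicate 2 (-0.49) and without NICD2 replicate 1 (-0.45). The antisense gene SPRY4-AS1 overlaps SPRY4 but had 3 to 36 reads a library, against 136 to 2064 for SPRY4, and the library kit is not stated to keep strand.

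SPRY2 was low in all libraries. It stood at 2.25, 1.56 and 2.09 CPM in NICD1, 2.06, 2.56 and 1.53 CPM in NICD2, 2.01, 2.29 and 2.31 CPM in NICD3 and 1.43, 0.900 and 1.58 CPM in NICD4, against 3.66, 5.73 and 4.42 CPM in EV. Each NICD group lay below EV without overlap, by 1.20, 1.15, 1.02 and 1.79 ± 0.25 on the log2 scale (limma adjusted p of 0.00049, 0.0011, 0.0019 and 9.3e-06). SPRY1 was the scarcest member, at 1.02, 0.474 and 0.824 CPM in NICD1, 0.799, 1.66 and 1.29 CPM in NICD2, 0.690, 0.732 and 0.709 CPM in NICD3 and 0.804, 0.386 and 0.838 CPM in NICD4, against 0.412, 0.157 and 0.195 CPM in EV. The EV values rest on 5 to 9 reads a library, and 1 NICD4 library lay below the highest EV library. The log2 changes of SPRY1 were 1.45, 2.10, 1.39 and 1.26 ± 0.39 (limma adjusted p of 0.0034, 0.00034, 0.0051 and 0.0076). All EV libraries were under the filter's minimum of 0.548 CPM, and with only the groups compared SPRY1 was not tested in NICD1 and NICD4. With library totals alone its NICD4 change of 0.84 no longer passed.

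The Spred genes, relatives of the Sproutys that recruit the RAS inhibitor NF1, both fell. SPRED2 was at 7.99, 6.77 and 8.57 CPM in NICD1, 11.3, 16.3 and 10.6 CPM in NICD2, 8.72, 9.97 and 9.48 CPM in NICD3 and 3.57, 6.68 and 5.21 CPM in NICD4, against 19.4, 25 and 22.6 CPM in EV. All NICD libraries were below EV, with NICD4 lowest. The log2 changes were -1.52, -0.83, -1.24 and -2.14 ± 0.20 in NICD1 to NICD4 (limma adjusted p of 1.1e-05, 0.0029, 8.5e-05 and 2.9e-07). SPRED1 was at 11.3, 9.21 and 10.7 CPM in NICD1, 12.9, 15.8 and 12.8 CPM in NICD2, 11.5, 14.0 and 13.7 CPM in NICD3 and 5.18, 7.65 and 7.45 CPM in NICD4, against 18.7, 20.8 and 20.2 CPM in EV. It also lay below EV in every library and fell by 0.94, 0.53, 0.60 and 1.57 ± 0.15 on the log2 scale (limma adjusted p of 4.7e-05, 0.0065, 0.0021 and 2.6e-07). Its transcript has a GC content of 38.9%, which is at percentile 10.2 of genes. Once the GC trend was removed from each library, the SPRED1 changes were -0.29, -0.19, -0.08 and -0.69, and those in NICD2 and NICD3 no longer passed (adjusted p of 0.094 and 0.46). Without NICD2 replicate 1 the NICD2 change of SPRED1 was -0.45 and did not pass.

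Both ETS factors bind related sequences, yet they differed in these libraries. ETV4 was at 175, 183 and 163 CPM in NICD1, 173, 140.3 and 171 CPM in NICD2, 197, 172 and 164 CPM in NICD3 and 215, 168 and 191 CPM in NICD4, against 94.5, 82.0 and 78.6 CPM in EV. All NICD libraries were above all EV libraries, by 1.03, 0.92, 1.06 and 1.17 ± 0.11 on the log2 scale (limma adjusted p of 1.8e-06, 9.4e-06, 1.8e-06 and 3.6e-07), and the NICD libraries overlapped each other in every pair of groups. With the GC trend removed the ETV4 changes were 0.44, 0.63, 0.59 and 0.38, all still called. ETV5 was at 49.3, 62.9 and 51.2 CPM in NICD1, 44.1, 39.2 and 45.9 CPM in NICD2, 48.7, 46.2 and 45.6 CPM in NICD3 and 75.7, 58.1 and 66.7 CPM in NICD4, against 49.1, 44.7 and 47.0 CPM in EV. NICD4 was clear of EV and NICD1 narrowly so, whereas NICD2 and NICD3 overlapped it. The log2 changes of ETV5 were 0.21, -0.13, -0.00 and 0.50 ± 0.11, with adjusted p of 0.093, 0.33, 0.99 and 0.00055 by limma. On library totals alone ETV5 in NICD4 was 0.02 and did not pass, and it was called lower in NICD1, NICD2 and NICD3 at -0.22, -0.39 and -0.41. After removal of the GC trend ETV5 also passed as higher in NICD1, at 0.28 (adjusted p of 0.043). The gene overlaps DGKG, which had 145 to 613 reads a library beside 663 to 1420 for ETV5, and reads of the pair cannot be told apart by strand.

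**Figure D3:**
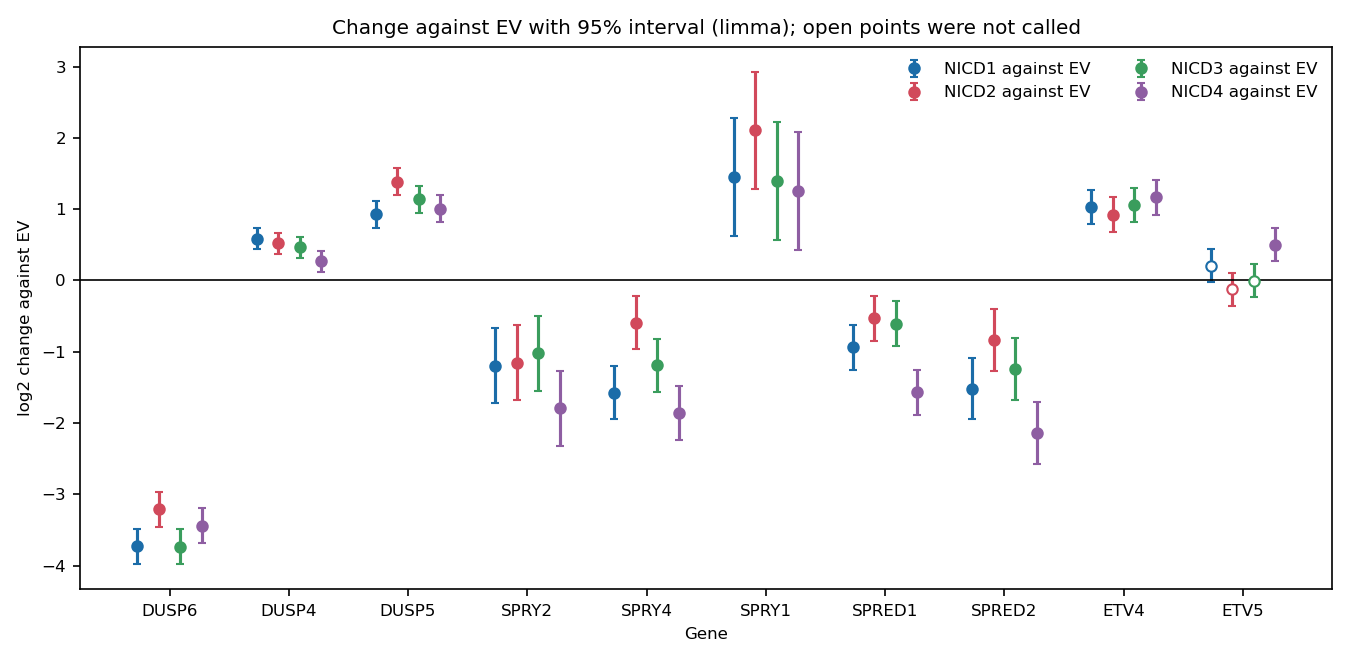
Log2 change of each of the 10 members in NICD1 to NICD4 against EV with its 95% interval, filled where the adjusted p passed 0.05. DUSP6 lies between -3.74 and -3.21 in all 4 groups, DUSP5 between 0.93 and 1.39, and ETV5 near 0 except in NICD4.

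Differences among the receptors were tested directly. An F-test over the 4 NICD groups, which does not use the EV mean, called 8 of 10 members beside 68.1% of all genes, and left out SPRY1 (adjusted p = 0.21) and ETV4 (0.28). NICD2 stood apart from NICD1 for 6 members, of which 5 were higher and 1 lower, beside 18.6% and 18.3% of genes (36.9% in all). In NICD2 against NICD1, SPRY4 was higher by 0.98 ± 0.17 (limma adjusted p = 0.0011), SPRED2 by 0.69 ± 0.20 (0.019), DUSP6 by 0.52 ± 0.11 (0.0045), DUSP5 by 0.46 ± 0.09 (0.002) and SPRED1 by 0.41 ± 0.15 (0.042) on the log2 scale, and ETV5 was lower by 0.33 ± 0.11 (0.027). For all 6 of them the libraries of the 2 groups did not overlap. The share of all genes without overlap was not computed, so this does not set these members apart. In NICD3 against NICD1 no member was called, where 3.68% of genes were higher and 2.96% lower (6.64% in all), although 3 members had an unadjusted p under 0.05 by limma and 3 by voom. In NICD3 against NICD2 8.73% of genes were called higher and 6.3% lower (15% in all). Of the members none was higher, and DUSP6 was lower by 0.53 ± 0.11 and SPRY4 by 0.60 ± 0.17 on the log2 scale (limma adjusted p of 0.0068 and 0.033).

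NICD4 had the lowest mean SPRY2, SPRY4, SPRED1 and SPRED2 of the 5 groups. In NICD4 against NICD2 1 member was called higher and 6 lower, beside 28.5% and 35.3% of genes (63.9% in all). There SPRED2 was lower by 1.31 ± 0.20, SPRY4 by 1.27 ± 0.17, SPRED1 by 1.04 ± 0.15, DUSP5 by 0.38 ± 0.09 and DUSP4 by 0.26 ± 0.07 on the log2 scale, and ETV5 was higher by 0.63 ± 0.11. SPRY2 was also called lower by 0.64 ± 0.25, although its libraries overlapped. In NICD4 against NICD3 2 members were called higher and 5 lower, beside 21% and 28.5% of genes (49.5% in all). There SPRED1 was lower by 0.96 ± 0.15, SPRED2 by 0.90 ± 0.20, SPRY2 by 0.77 ± 0.25, SPRY4 by 0.67 ± 0.17 and DUSP4 by 0.20 ± 0.07 on the log2 scale, and ETV5 was higher by 0.50 ± 0.11. In that comparison DUSP6 was higher by 0.30 ± 0.11 (limma adjusted p = 0.043) with overlapping libraries. In NICD4 against NICD1, where 12% of genes were higher and 16.4% lower (28.4% in all), the 3 called members DUSP4, SPRED1 and SPRED2 were lower by 0.32 ± 0.07, 0.63 ± 0.15 and 0.63 ± 0.20 on the log2 scale. SPRY4, SPRED1 and SPRED2 shared 1 order of group means, EV above NICD2, NICD3, NICD1 and NICD4, which is the reverse of the order of the mean GC slopes (-0.421 in EV, -0.119 in NICD2, 0.0406 in NICD3, 0.162 in NICD1 and 0.337 in NICD4).

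**Figure D4:**
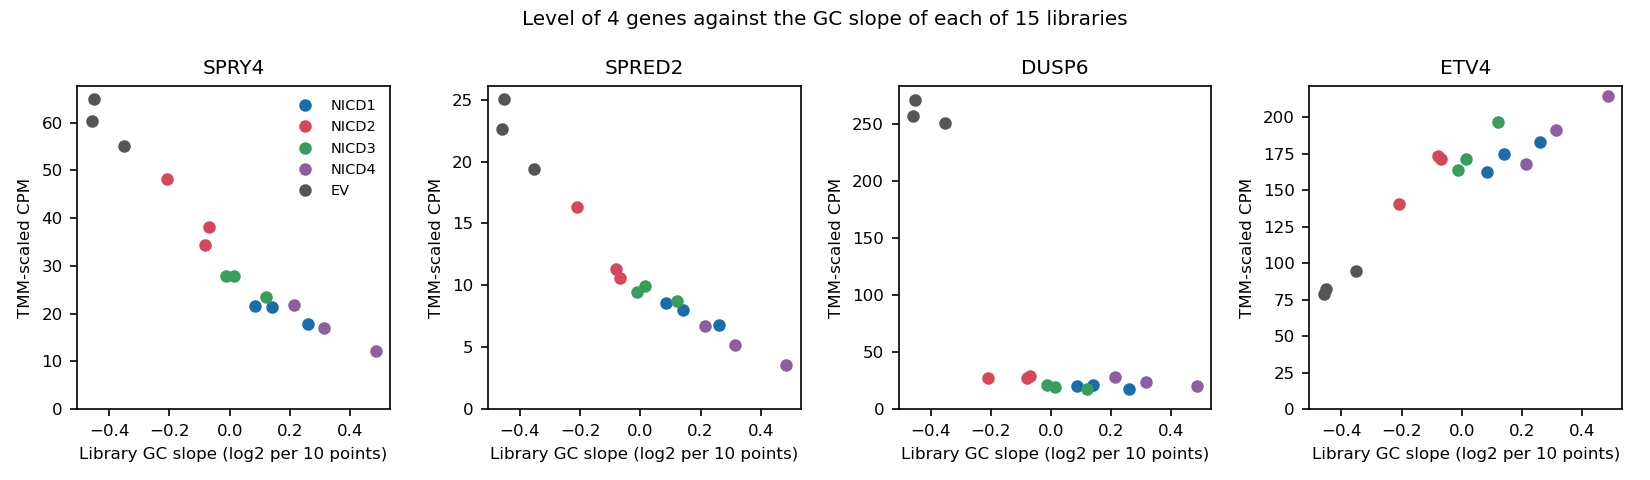
Level of 4 members in each of the 15 libraries (TMM-scaled CPM) against the GC slope of the library (log2 per 10 percentage points of GC), coloured by group. SPRY4 and SPRED2 run down and ETV4 runs mostly up with the slope over the 15 libraries, while DUSP6 separates the NICD libraries (17.2 to 29.3 CPM) from EV (251 to 271 CPM).

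The GC slope also ran with the levels of several members among the 3 libraries of the same group. SPRED1 and SPRED2 were lowest in the library with the highest slope in 5 of 5 groups, and SPRY4, SPRY2 and DUSP6 in 4 of 5. ETV5 was highest in that library in 5 of 5 groups and ETV4 in 4 of 5. DUSP4 was highest in it in 3 of 5 groups, and DUSP5 and SPRY1 were each lowest in 2 and highest in 1. Such counts are not given here for all genes. In a fit with the slope beside the group means, each 0.1 of slope went with a log2 change of -0.29 ± 0.04 for SPRED2, -0.25 ± 0.03 for SPRY4, -0.19 ± 0.04 for SPRED1, -0.13 ± 0.03 for DUSP6, 0.15 ± 0.02 for ETV4 and 0.14 ± 0.02 for ETV5 (limma adjusted p of 6.6e-06, 4e-07, 0.00013, 0.00073, 7.3e-06 and 6.6e-05). DUSP4, DUSP5, SPRY1 and SPRY2 did not pass, and 49.8% of all genes did. This fit was chosen after the pattern was seen, and it carries the slope of small differences within groups over to larger ones between groups.

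DUSP6 and DUSP5 kept their calls in all 4 groups in that fit. DUSP6 was at -2.95, -2.81, -3.13 and -2.43 in NICD1 to NICD4, and DUSP5 at 1.14, 1.5, 1.30 and 1.28. DUSP4 was at 0.39, 0.42 and 0.31 in NICD1 to NICD3, all called, and at 0.01 in NICD4, not called. SPRY4 was at -0.09, 0.17, -0.02 and 0.07, SPRED2 at 0.15, 0.03, 0.08 and 0.03 and SPRED1 at 0.18, 0.05, 0.29 and -0.11, and none of these 12 changes passed. ETV4 was at 0.16, 0.47, 0.37 and 0.03, called in NICD2 and NICD3. ETV5 was at -0.59, -0.54, -0.63 and -0.54, called as lower in NICD1, NICD2 and NICD3. SPRY2 passed in no group, at -0.77, -0.93, -0.69 and -1.24, and SPRY1 passed in NICD2 at 1.93. Members called were 4, 6, 5 and 2 of 10 in NICD1 to NICD4, and genes called were 3854, 6511, 5334 and 1612.

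Between receptors the same fit called only DUSP4, DUSP5, DUSP6 and ETV4 among the members. In NICD2, NICD3 and NICD4 against NICD1 it called 2, 1 and 2 members, beside 2119, 1936 and 3147 of 15122 genes. In NICD3 and NICD4 against NICD2 it called 1 and 2, beside 3183 and 1097 genes. In NICD4 against NICD3 it called 3, beside 2098 genes. DUSP4 was lower in NICD4 against NICD1, NICD2 and NICD3 by 0.37, 0.41 and 0.30 on the log2 scale (limma adjusted p of 0.00012, 0.021 and 0.015). DUSP6 was lower in NICD3 against NICD2 by 0.31 and higher in NICD4 against NICD3 by 0.69 and against NICD1 by 0.52 (adjusted p of 0.01, 0.00027 and 0.00015). DUSP5 was higher in NICD2 against NICD1 by 0.36 (adjusted p of 0.026), but its difference in NICD4 against NICD2 (-0.22) and that of DUSP6 in NICD2 against NICD1 (0.14) no longer passed. ETV4 was higher than in NICD1 by 0.31 in NICD2 and 0.21 in NICD3, and lower in NICD4 by 0.44 against NICD2 and 0.34 against NICD3 (adjusted p of 0.01, 0.017, 0.019 and 0.0091), although none of these differences passed without the covariate. None of the pairwise calls of SPRY2, SPRY4, SPRED1, SPRED2 or ETV5 passed in that fit.

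**Figure D5:**
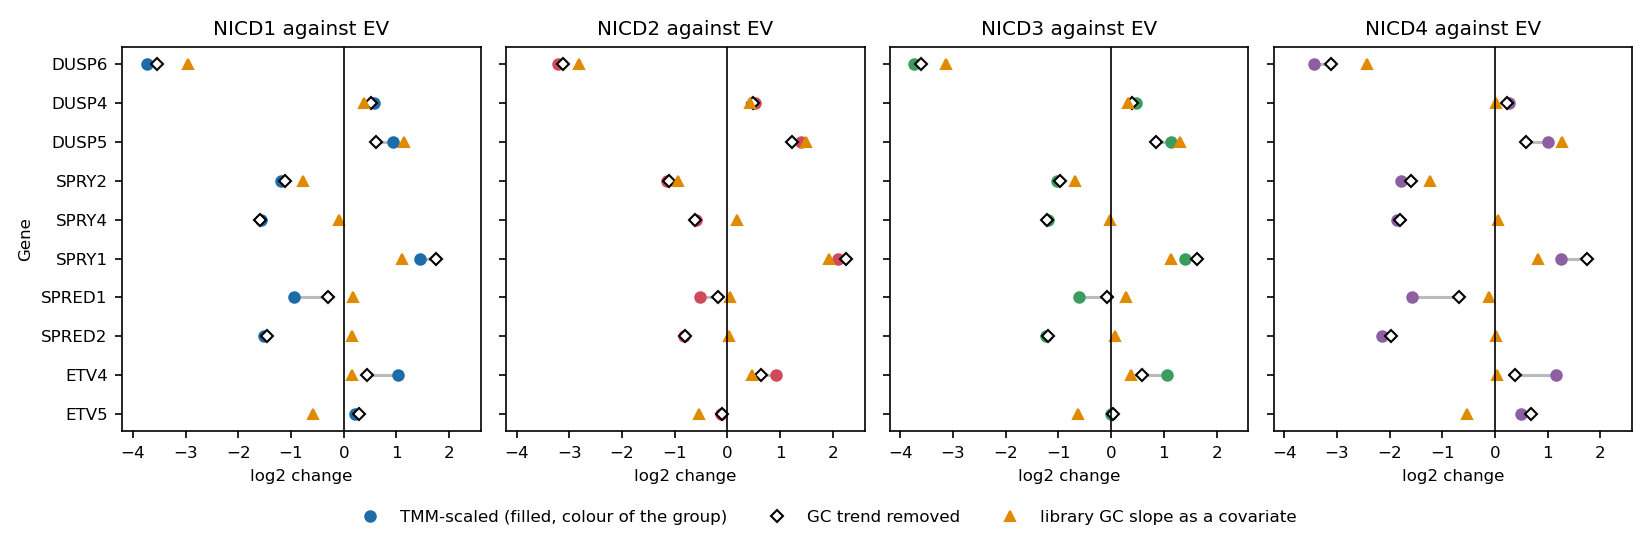
Log2 change of the 10 members against EV in 1 panel per NICD group, for TMM-scaled levels, for levels with the GC trend of each library removed and for a fit with the library GC slope as a covariate. DUSP6 stays at or below -2.43 and DUSP5 at or above 0.59 under all 3, while SPRY4 and SPRED2 lie near 0 only with the covariate.

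Promoters are shown because the NICD acts with the DNA-binding protein RBPJ. Those printed are of DUSP6, SPRED2 and SPRY4, which had the largest mean falls among the members, and of SPRY1. The SPRY1 change had the other sign but is no support for a direction, since SPRY1 passed the filter only through NICD libraries. Each gene is shown with 1 start site, and the windows were chosen after the matches were seen. The RefSeq promoter table (GRCh38.p14) held 10 start sites of 6 members, each with 250 bases before and 50 after the start, written 5′ to 3′ on the strand of the gene. Capitals mark the motifs searched on both strands: the RBPJ core TGGGAA, the ETS motif CCGGAAG, the AP-1 motif TGANTCA and the HES and HEY motif CACGNG. These were present in 24.0%, 10.3%, 7.71% and 30.5% of the 35116 promoters of the table.
DUSP6, chr12:89352452-89352751, minus strand: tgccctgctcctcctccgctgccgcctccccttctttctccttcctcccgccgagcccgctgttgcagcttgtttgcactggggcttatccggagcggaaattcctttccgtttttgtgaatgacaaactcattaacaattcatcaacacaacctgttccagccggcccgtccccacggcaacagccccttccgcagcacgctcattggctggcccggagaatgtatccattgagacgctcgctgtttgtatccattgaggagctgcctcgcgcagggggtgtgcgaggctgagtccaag
SPRY4, chr5:142324198-142324497, minus strand: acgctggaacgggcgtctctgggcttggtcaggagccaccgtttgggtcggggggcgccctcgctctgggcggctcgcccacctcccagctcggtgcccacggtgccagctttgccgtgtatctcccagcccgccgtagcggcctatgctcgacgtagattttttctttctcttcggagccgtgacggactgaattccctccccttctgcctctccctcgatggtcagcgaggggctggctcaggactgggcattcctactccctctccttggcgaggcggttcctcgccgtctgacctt
SPRED2, first start site, chr2:65432550-65432849, minus strand: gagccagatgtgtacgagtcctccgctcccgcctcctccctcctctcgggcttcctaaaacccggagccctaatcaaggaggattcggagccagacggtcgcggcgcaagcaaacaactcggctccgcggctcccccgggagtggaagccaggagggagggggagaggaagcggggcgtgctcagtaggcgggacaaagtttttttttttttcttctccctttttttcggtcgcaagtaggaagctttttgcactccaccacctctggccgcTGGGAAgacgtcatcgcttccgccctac
SPRY1, second start site, chr4:123398136-123398435, plus strand: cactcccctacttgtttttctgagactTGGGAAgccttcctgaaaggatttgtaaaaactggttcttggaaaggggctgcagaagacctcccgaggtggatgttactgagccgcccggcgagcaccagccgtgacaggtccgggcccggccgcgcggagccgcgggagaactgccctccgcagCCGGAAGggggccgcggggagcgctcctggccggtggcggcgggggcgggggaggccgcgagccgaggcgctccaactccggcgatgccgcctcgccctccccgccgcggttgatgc
The DUSP6 and SPRY4 windows held none of the 4 motifs, and no matches in the windows shown overlapped each other. The SPRED2 window held 1 RBPJ core 23 bases after the start, and the SPRY1 window held an RBPJ core at -223 and an ETS motif at -67. Among the 6 windows not printed, SPRY2 had an RBPJ core at 9 in 1 of its 3 start sites, the other SPRED2 window held AP-1 motifs at -6 and 35, the other SPRY1 window held a HES and HEY motif at -173, and SPRED1 and the other SPRY2 windows held none. A match is a string of letters and not a binding site, and no binding was measured in these libraries.

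The rest of the cascade gave the members' setting. With TMM scaling 34.6% of all genes rose and 40.7% fell in NICD1, and 28.6% and 31.1% in NICD2. In NICD3 32.5% rose and 36.8% fell, and in NICD4 35.7% and 45.2%. On library totals alone 3308 and 8486, 2847 and 6661, 3014 and 8258, and 3651 and 8867 of 15122 genes did. With the GC trend removed 5096 and 5309, 4418 and 4366, 4832 and 4925, and 5422 and 5584 of 14737 did. With the GC slope as a covariate 2204 and 1650, 3626 and 2885, 3091 and 2243, and 886 and 726 of 15122 did. The counts of each list are to be read against all genes in the same setting. Among 32 adaptors, RAS proteins, RAS regulators and kinases of the cascade, 6 rose and 20 fell in NICD1, 7 and 12 in NICD2, 6 and 19 in NICD3 and 8 and 22 in NICD4. On library totals alone the counts were 4 and 24, 6 and 18, 4 and 23, and 7 and 24. With the GC trend removed, the counts were 10 and 14, 11 and 11, 10 and 15, and 14 and 13, and with the GC slope as a covariate 5 and 3, 12 and 5, 6 and 6, and 1 and 2. The ERK1 gene MAPK3 averaged 65.0, 58.3, 64.2 and 88.2 CPM in NICD1 to NICD4, against 43.1 CPM in EV. All 4 of its changes were called with TMM scaling, and in the GC slope fit the sign of each was reversed. MAPK3 is named for its role and not by the size of its change. The largest mean changes of the list were in the RAS inhibitor genes RASA2 (2.12, 3.99, 2.30 and 1.5 CPM in NICD1 to NICD4, against 9.07 CPM in EV) and RASA1 (2.45, 2.54, 2.56 and 1.90 CPM, against 8.68 CPM in EV) and in RRAS, a RAS relative (70.0, 53.0, 69.3 and 60.2 CPM, against 20.3 CPM in EV). In the GC slope fit RASA2 had a positive change in all 4 groups, RASA1 was no longer called in NICD1 and NICD4, and RRAS was no longer called in NICD4.

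Of 30 tested genes that ERK is known to induce outside the 10 members, 12 rose and 11 fell in NICD1, 12 and 11 in NICD2, 9 and 14 in NICD3 and 11 and 15 in NICD4. On library totals alone the counts were 8 and 17, 8 and 13, 6 and 17, and 8 and 20. EGR3, an early growth response factor, averaged 0.191, 0.878, 0.430 and 0.878 CPM in NICD1 to NICD4, against 2.84 CPM in EV, and was called lower in each, but in none of them in the GC slope fit. Its relative EGR1 had a lower mean in all 4 groups, at 27.1, 48.8, 23.9 and 45.5 CPM in NICD1 to NICD4, against 119.8 CPM in EV. Among 24 tested phosphatases, Sprouty relatives and ETS factors outside the members, 4 rose and 9 fell in NICD1, 5 and 8 in NICD2, 4 and 9 in NICD3 and 8 and 11 in NICD4. With the GC trend removed these counts were 4 and 12, 2 and 10, 2 and 12, and 3 and 14, and on library totals alone 3 and 14, 2 and 11, 2 and 16, and 3 and 16. PTPN7, a tyrosine phosphatase that acts on ERK in blood cells, averaged 0.145, 0.197, 0.162 and 0.183 CPM in NICD1 to NICD4, against 7.51 CPM in EV, a log2 change of -5.31, -4.96, -5.15 and -5.42 ± 0.56. All 4 NICD means were under the filter's minimum of 0.548 CPM. PTPN7 was thus tested through its EV libraries, and this fall is no support for a direction. The ETS factor ELF1 was lower and ELF3, which is epithelial, higher in all 4 groups. In the GC slope fit ELF1 no longer passed in NICD2, NICD3 and NICD4 and ELF3 in NICD4. ELF3 averaged 32.3, 17.2, 31.5 and 21.2 CPM in NICD1 to NICD4, against 6.30 CPM in EV.

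Upstream of the cascade, 22 of 27 receptor tyrosine kinases and ligands were tested, of which 10 rose and 10 fell in NICD1, 9 and 9 in NICD2, 11 and 8 in NICD3 and 10 and 10 in NICD4. On library totals alone the counts were 8 and 11, 7 and 10, 6 and 10, and 9 and 12. KIT was not analysed here. FGF9, a fibroblast growth factor, averaged 3.91, 5.39, 9.62 and 3.15 CPM in NICD1 to NICD4, against 0.233 CPM in EV. EREG, the EGF receptor ligand epiregulin, averaged 0.0453, 1.18, 0.431 and 0.178 CPM in NICD1 to NICD4, against 3.33 CPM in EV. BTC, another ligand of that receptor, averaged 0.651, 0.820, 1.5 and 0.529 CPM in NICD1 to NICD4, against 0.0315 CPM in EV. All 12 of these changes were called by limma, while in the GC slope fit EREG passed in NICD1 only. FGF9 and BTC had EV means under the filter's minimum of 0.548 CPM. They passed the filter through NICD libraries, so their calls are no support for a direction.

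Across the 15 libraries the genes with the pattern most like a member were sought among 11482 genes by Pearson's r of log2 levels, as a description, since the points share depth, group and GC slope. DPPA2, MAGEB1 and FAM133A were most like DUSP6 (r of 0.990, 0.988 and 0.987), and PHLDA1, MALT1 and PSMA5 most like DUSP5 (0.977, 0.9745 and 0.973). SPRED2 was matched by SPIN1 (0.996), SPRY4 by NFE2L3 (0.991), SPRED1 by DPM1 (0.989), ETV4 by OAZ1 (0.995) and ETV5 by ARAF (0.985). DUSP4 was matched by SPRYD3 (0.980), SPRY2 by NEK4 (0.963) and SPRY1 by CYP2R1 (0.887). No other member was among the 3 genes most like any member.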

How the data were processed

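RNA was measured in 15 libraries, 3 each for NICD1, NICD2, NICD3, NICD4 and EV, prepared from TRIzol RNA with an oligo-dT kit, per the labels' protocols. The authors deposited log2 of the read count plus 1 per gene, per the file headers and the values, with no scaling for depth. Undoing the log2 gave whole counts within 0.001 for 100% of values, and no column of other samples was present. TopHat2 2.0.6, HTSeq and GRCh37 are named in the submitters' processing notes, and other settings are not given in the sources used here.

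Counts were scaled by TMM factors (trimming 30% of M and 5% of A), and log2 of the scaled count plus 1 (0.0544 CPM) was fitted with 1 mean per group over all 15 libraries in limma 3.58.1 (R 4.3.3), with trended and robust variance (statmod 1.5.0). Folds on this scale understate the change of low genes. A gene was tested if 3 libraries reached 0.548 CPM, which is 10 reads at median depth, and its total reached 15 reads; 15122 genes met this. Two-sided p-values were adjusted by Benjamini and Hochberg over those genes in each comparison, with a threshold of 0.05. The plan for a table without counts, limma on the log scale, was kept, and voom on the recovered counts was an alternative. GC content was known for 14737 of the tested genes (97.5%), and its trend was removed from each library by lowess (span 0.3) as another. Library totals of 11630195 to 27704492 reads limit the precision for SPRY1 and SPRY2.

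The members and gene lists were chosen with earlier results of these data known. All 10 members are named, with from each list the genes of largest absolute mean change over the 4 comparisons with EV, plus MAPK3. A gene of the lists is not reported here. Symbols and exon lengths are from the reference annotation (GENCODE 29 for symbols missing there), and promoters from RefSeq. Replicate numbers are part of the titles. The main fit did not pair libraries by them. KIT and DUSP14 were not analysed here.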

Additional observations from a re-analysis of the deposited data

Results flagged for a closer look

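The 4 NICD groups differed from each other in 8 of the 10 members, by an F-test in limma on the 4 NICD means (68.1% of all genes were called). It comes from the fit of all 15 libraries, so EV enters the spread, scaling and filter but not the means tested. The adjusted p was 0.00018 for SPRED1, 0.00022 for SPRY4, 0.00062 for SPRED2, 0.00096 for ETV5, 0.0022 for DUSP5, 0.0027 for DUSP6, 0.0053 for DUSP4 and 0.048 for SPRY2. Fitted on the NICD libraries alone, 7 members and 9697 genes were called. The SPRY2 call was lost with the replicate block (0.072), voom (0.1), median-of-ratios factors (0.074), no filter (0.081), a pseudocount of 4 (0.05), only the groups compared (0.063) and the GC trend removed (0.14), and ETV4 gained a call with the GC trend removed (0.0099). Beside the library GC slope as a covariate SPRED2 (0.65), ETV5 (0.38) and SPRY2 (0.29) no longer passed, while ETV4 did (0.0081). DUSP4, DUSP5, DUSP6, SPRY4 and SPRED1 passed in that fit as well. The part of the GC slope in these differences was otherwise not tested.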

How the results depend on the processing

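The 40 changes of the members against EV kept their direction and their side of the threshold with pseudocounts of 0.5 and 4, no filter, median-of-ratios factors, voom and a replicate block. Deviations of same-numbered libraries from their group means had correlations of -0.429 to 0.363, above 0.1 in 13 of 30 pairs. The 60 other pairs between groups gave -0.398 to 0.412. Replicates 1 and 2 of EV, NICD2, NICD3 and NICD4 ran with their own number (0.142 to 0.363). NICD1 replicate 2 ran against NICD2 replicate 2 (-0.429) and with NICD4 replicate 1 (0.412). The block changed none of the 40 calls. Leaving out 1 library changed 3 of 600 outcomes, each in NICD2 and each no longer passing. SPRY1 was not tested under a filter of 30 reads, nor in NICD1 and NICD4 with only the groups compared.

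On library totals alone the median change of all genes was -0.534, -0.313, -0.479 and -0.656 in NICD1 to NICD4, against -0.11, -0.0547, -0.0822 and -0.178 with TMM, and 28%, 29.9%, 26.7% and 29.2% of calls were then rises, against 45.9%, 47.9%, 46.9% and 44.1% with TMM. ETV5 in NICD1 was then at -0.2223, DUSP4 in NICD4 at -0.2179, and 4 members and 2323 genes were called in NICD3 against NICD2. In NICD4 against NICD1, 5 members and 4115 genes were called with median-of-ratios factors, 5 and 4048 with the GC trend removed (5 and 4033 with the replicate block too), and with only the groups compared 1096 genes and 0 members. With the GC trend removed ETV4 was at 0.1881 in NICD2 against NICD1, -0.2568 in NICD4 against NICD2 and -0.2113 in NICD4 against NICD3, and MAPK3 in NICD1 at -0.0357.

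With the library GC slope as a covariate, chosen after the data were seen, 3854, 5334 and 1612 genes and 4, 5 and 2 members were called in NICD1, NICD3 and NICD4 against EV. In NICD2 against NICD1 there were 2119 genes and 2 members, in NICD3 against NICD1 1936 and 1, in NICD4 against NICD2 1097 and 2, in NICD4 against NICD3 2098 and 3, in NICD3 against NICD2 1 member, and 6458 genes in the F-test. Reversed values against EV in NICD1 to NICD4 were SPRED2 0.1518, 0.03447, 0.07976 and 0.02774, RASA2 1.653, 0.7645, 1.029 and 2.221, and MAPK3 -0.3151, -0.03363, -0.1437 and -0.1586. SPRED1 reversed in NICD1 (0.1849), NICD2 (0.05233) and NICD3 (0.285), SPRY4 in NICD2 (0.1734) and NICD4 (0.06576), ETV5 in NICD1 (-0.5916) and NICD4 (-0.5374) and EGR3 in NICD4 (0.2422). In NICD2 against NICD1 SPRED1 was at -0.1326, SPRED2 at -0.1174, ETV5 at 0.05264 and ETV4 at 0.3132. ETV4 was at -0.4399 in NICD4 against NICD2 and -0.3379 in NICD4 against NICD3, where SPRY4 was at 0.0836. The cause was not tested.

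Leaving out 1 library gave 2495 to 6688 genes and 3 to 6 members in NICD2 against NICD1, 463 to 1625 genes in NICD3 against NICD1, 1125 to 3159 genes and 1 to 3 members in NICD3 against NICD2, 2099 to 5958 genes and 2 to 5 members in NICD4 against NICD1, and 4 to 7 members in NICD4 against NICD3. Counts moved over 1.5 times without NICD2 replicate 2 (2495 genes in NICD2 against NICD1, 1125 in NICD3 against NICD2), NICD1 replicate 1 (574 in NICD3 against NICD1, 2309 in NICD4 against NICD1), replicate 2 (2613 in NICD2 against NICD1, 501 in NICD3 against NICD1) or replicate 3 (2099 in NICD4 against NICD1), NICD3 replicate 1 (1198 in NICD3 against NICD2), replicate 2 (486 in NICD3 against NICD1) or replicate 3 (463 in NICD3 against NICD1), and NICD4 replicate 1 (1625 in NICD3 against NICD1, 2458 in NICD4 against NICD1). Without NICD4 replicate 2, 4 members were called in NICD4 against NICD3, and without NICD2 replicate 3 there was 1 in NICD3 against NICD2.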
